A study of Homo sapiens with 9 samples.

Results

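The circadian clock genes CRY1, CRY2, PER1, PER2, PER3, CLOCK, ARNTL, NR1D1, NR1D2 and DBP were followed through RNA-seq of SET2, an acute megakaryoblastic leukemia line with mutant JAK2, labelled as AML that followed a myeloproliferative neoplasm (MPN). The 10 genes were taken from a table of 60662 genes, 9 by symbol and PER1 by its Ensembl identifier ENSG00000179094, which the table lists under the symbol AC129492.1. The list was chosen by the measured loss of CRY1 RNA in both knockout clones, so the CRY1 values against WT are given as a description without a test, and the other 9 members were listed by name as parts of the same loop. The 9 libraries came from WT SET2 cells (n = 3), DYRK1A KO clone 11H1 (n = 3) and DYRK1A KO clone 14B5 (n = 3). Each clone descended from 1 sorted cell after Cas9 protein and guide RNA had been introduced by nucleofection, and it carried only frame-shifting indels in DYRK1A. The libraries include none from an unedited clone, so cloning and DYRK1A loss cannot be told apart. Libraries of 1 clone share its founder, and the p values describe the spread among these libraries and not among independent knockouts. All 9 libraries were labelled as untreated, and the sources used here state no synchronization of the cells and no time of harvest. A level is therefore 1 reading of genes that oscillate in synchronized cells, and a difference between groups in the stage of the cycle cannot be told apart from a difference in its mean.

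The mammalian clock is a feedback loop of transcription. CLOCK pairs with BMAL1, the product of ARNTL, and the dimer binds E-box elements and switches on the PER and CRY genes, whose proteins return to the nucleus and repress the dimer. A second loop runs through NR1D1 and NR1D2 (REV-ERB alpha and beta), nuclear receptors that repress ARNTL through ROR elements, and DBP carries the rhythm to genes with D-box elements. DYRK1A belongs in this picture because it phosphorylates CRY2 and primes it for degradation, a step that acts on the protein and is not read by RNA-seq. Hematopoietic cells express the core loop, and the release of stem cells from the marrow follows a circadian rhythm.

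CRY1 RNA fell to under 1% of its WT level in both clones, and PER2 and CRY2 RNA were higher than WT in both, each more so in 11H1. The CRY2 rise in 14B5 was small (log2 fold change 0.15), and its call was lost with some libraries left out. The remaining members changed in 1 clone or in neither. Among the 9 members other than CRY1, 2 passed the threshold in KO (both clones, n = 6) versus WT, both higher, where 32.0% of all genes tested passed in either direction (14.3% higher, 17.7% lower). In 11H1 versus WT 5 of 9 passed (3 higher, 2 lower) beside 64.6% of all genes (31.8% higher, 32.8% lower), and in 14B5 versus WT 4 of 9 passed (3 higher, 1 lower) beside 53.5% (24.9% higher, 28.7% lower). These 3 comparisons share the WT libraries. In 11H1 versus 14B5, which uses no WT library, 7 of 9 passed (4 higher in 11H1, 3 lower) beside 63.7% of all genes (31.6% higher, 32.1% lower). The members' shares of 22.2%, 55.6% and 44.4% against WT were below those of all genes and their share of 77.8% between the clones was above, over 9 genes only, and nothing is read from these counts about the members as a group. The threshold was an adjusted p of 0.05 from the quasi-likelihood F test of edgeR with Benjamini-Hochberg adjustment over all genes tested.

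The median size of the log2 fold change over the 9 members was 0.18 in KO versus WT, where the median over all genes was 0.27. It was 0.27 in 11H1 versus WT (all genes 0.35), 0.15 in 14B5 versus WT (0.26) and 0.42 in 11H1 versus 14B5 (0.31). The medians leave out CRY1, and their differences from those of all genes were not tested.

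Library totals ran from 32347779 to 60272245 expected counts. A count of 3, about the single-sided upper 95% limit on the mean when 0 is counted, stood for 0.0502 to 0.0913 CPM. CPM are counts per 1000000 on TMM-scaled libraries, the unit of all levels below unless a length is named. The share of counts from mitochondrial genes was 7.23% to 7.39% in 11H1 and 3.30% to 3.92% in 14B5, and in WT it was 6.03%, 3.76% and 3.54%. It moves with the clone, and its part in the differences between 11H1 and the other groups was not tested. The 7 megakaryocytic markers (ITGA2B, ITGB3, GP9, PF4, GATA1, TAL1 and FLI1) summed to 1689 to 1708 CPM in WT, 1334 to 1404 in 11H1 and 1279 to 1311 in 14B5, a sum led by ITGA2B (group means of 919, 651 and 605 CPM). The members did not all go the same way: TAL1 was at 243 CPM in WT, 333 in 11H1 and 310 in 14B5 and GATA1 at 274, 240 and 283, while GP9 was at 22.2, 4.26 and 0.804 and PF4 at 0.510, 0 and 0. The T cell markers CD3D and CD3E summed to 0.880 to 0.996 CPM in WT, 2.44 to 4.01 in 11H1 and 0.339 to 0.487 in 14B5. Those of epithelium (EPCAM and KRT8) summed to 4.08 to 4.94, 2.28 to 2.43 and 2.01 to 2.96 CPM, and those of fibroblasts (COL1A1 and COL1A2) to 0.510 to 0.935, 1.71 to 2.34 and 0.268 to 0.406. The part of these differences in the results was not tested. In bulk RNA, fewer cells that express a gene and less RNA per cell cannot be told apart.

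DYRK1A RNA, the target of the editing, was at 197, 196 and 218 CPM in WT, 188, 191 and 192 in 11H1 and 191, 182 and 174 in 14B5. The groups were close. The log2 fold change was -0.13 in KO versus WT (95% interval -0.26 to 0.00, edgeR adjusted p = 0.126), and it passed with 3 groups fitted together (adjusted p = 0.0251). In 14B5 versus WT it passed (-0.17, adjusted p = 0.0278), a call lost without WT 3, 14B5 2 or 14B5 3 (adjusted p = 0.104 to 0.138) and with no filter on low counts (0.0720). A count over the whole gene does not see a small indel, so this RNA level does not check the loss of the protein.

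Promoter sequence was matched to RefSeq entries on GRCh38.p14 for all 10 members, with 15 promoters in all, each covering 250 bases before and 50 after a transcript start. The stretch before the start is printed for CRY1, whose RNA was lost, and for PER2, which rose in both clones. It is also printed for PER1 and NR1D2 (the second of its promoters in that table), the members with an exact CACGTG. Capitals mark exact matches on either strand to an E-box (CACGTG) or a D-box (TTANGTAA), and the PER2 stretch runs on to the end of its D-box, which crosses the start.
CRY1, chr12:107093550-107093799, minus strand: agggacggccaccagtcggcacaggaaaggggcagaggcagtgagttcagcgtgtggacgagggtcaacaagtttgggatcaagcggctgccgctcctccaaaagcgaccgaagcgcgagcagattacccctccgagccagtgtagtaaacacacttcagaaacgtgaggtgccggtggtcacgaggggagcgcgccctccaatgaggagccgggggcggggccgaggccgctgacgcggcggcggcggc
PER1, chr17:8152405-8152654, minus strand: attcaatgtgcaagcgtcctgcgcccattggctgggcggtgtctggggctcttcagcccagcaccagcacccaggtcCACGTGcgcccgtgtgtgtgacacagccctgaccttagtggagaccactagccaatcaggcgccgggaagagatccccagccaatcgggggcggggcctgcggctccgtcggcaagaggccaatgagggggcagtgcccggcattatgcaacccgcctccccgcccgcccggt
PER2, chr2:238288606-238288860, minus strand: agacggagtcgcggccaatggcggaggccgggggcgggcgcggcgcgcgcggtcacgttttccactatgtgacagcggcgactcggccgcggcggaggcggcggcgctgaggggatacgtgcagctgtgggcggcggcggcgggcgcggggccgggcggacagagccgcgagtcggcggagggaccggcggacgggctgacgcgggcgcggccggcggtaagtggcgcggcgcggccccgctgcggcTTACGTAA
NR1D2, chr3:23945871-23946120, plus strand: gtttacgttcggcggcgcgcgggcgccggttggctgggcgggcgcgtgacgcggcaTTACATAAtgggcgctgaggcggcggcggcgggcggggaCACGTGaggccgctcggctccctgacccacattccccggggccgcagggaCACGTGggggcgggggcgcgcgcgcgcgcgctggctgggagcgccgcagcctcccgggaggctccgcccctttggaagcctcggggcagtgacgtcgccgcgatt

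An E-box lay 173 bases before the start of PER1, and a pair lay 155 and 105 bases before the start of NR1D2. E-boxes, searched as exact CACGTG only, were found in 2 members, where 7.26% of 35116 promoters of the same length hold one. The 10 members have 15 promoters. Members are counted here by gene and shares by promoter, so a count and its share are not like for like. D-boxes were found in 3 members, PER2, PER3 (177 bases before its start) and NR1D2 (194 bases before), where 2.18% of all promoters hold one. A ROR element (ANTAGGTCA, in 0.49% of promoters) was found in ARNTL, 29 bases after the start of the second promoter. The cAMP response element (TGACGTCA, in 1.85%) was found in no member, and the windows of CRY1, CRY2, CLOCK, NR1D1 and DBP held none of the 4 elements. None of these elements overlapped another. Each match describes letters in a window of 300 bases. Variants of these letters were not searched. The printed PER2 stretch holds the variant CACGTT, and the CRY1 stretch holds its reverse complement AACGTG. A missing match therefore says nothing of variant elements or of binding elsewhere.

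CRY1 (chr12:106991364-107093829, minus strand, GENCODE v29 on GRCh38) encodes the cryptochrome that is the stronger repressor of CLOCK-BMAL1. Its expected counts were 688, 699 and 629 in WT, 3, 1 and 3 in 11H1 and 4, 2 and 5 in 14B5, or 14.0, 14.6 and 15.3 CPM in WT and at most 0.0912 CPM in any KO library. The KO libraries all lay at a handful of counts, and the groups were far apart. The summed counts in 11H1 were 0.399% of the WT level, with an exact 95% interval (Clopper-Pearson, conditional on the summed counts) of 0.160% to 0.823%, and those in 14B5 were 0.466% (0.232% to 0.836%). Over both clones the level was 0.437% of WT (0.259% to 0.693%), and the intervals cover counting error only. The fitted log2 fold change was -7.90 in 11H1 and -7.71 in 14B5. The intervals of the 2 clones overlap, but both use the same WT counts, and their overlap does not test the clones against each other. Summed counts of 7 in 11H1 and 11 in 14B5 could miss a sizeable difference in residual CRY1. CRY1 was left out of the 11H1 versus 14B5 fit by the filter on low counts.

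The loss of CRY1 chose the list, so the following count is a description. It sets a ceiling on KO counts, which a gene near 1 CPM in WT can meet with a smaller fall than that of CRY1. Of 13685 genes whose WT mean reached 1 CPM, 61 (0.446%), CRY1 among them, had no KO library above 5 counts, the highest CRY1 count in KO. The genes nearest to CRY1 were ranked by the Euclidean distance of log2 CPM, centred on the WT mean, over the 9 libraries, among the other 13684 of these genes. They were EBF3 (distance 1.49, WT mean 2.27 ± 0.225 CPM, SD, n = 3), EPB41L3 (1.85, WT mean 1.75 ± 0.512), HPDL (1.95, WT mean 1.63 ± 0.285), the lncRNA AC093791.1 (2.08, WT mean 1.5 ± 0.127) and FAM162B (2.18, WT mean 1.45 ± 0.178). All 5 had 0 counts in each KO library, so these distances depend on the prior count of 0.5. They lie on chromosomes other than 12.

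The genes beside CRY1 did not share its loss. Of the neighbours within 1000000 bases, 11 were tested in KO versus WT, with log2 fold changes from -1.66 to 0.30. Of these 1 was higher and 3 lower, where 14.3% of all genes were higher and 17.7% lower. Of 11 neighbours tested in 11H1, 1 was higher and 3 lower (31.8% and 32.8% of all genes). Of 10 neighbours tested in 14B5, 2 were higher and 4 lower (24.9% and 28.7%). The nearest, MTERF2, which encodes a mitochondrial transcription termination factor, lies 4198 bases from CRY1 and was at 13.4 CPM in WT, 12.4 in 11H1 and 9.03 in 14B5 (group means). Its log2 fold change was -0.11 in 11H1 (edgeR adjusted p = 0.237) and -0.58 in 14B5 (adjusted p = 7.74e-05). On the other side PWP1, 591903 bases away, had log2 fold changes of -0.04 and 0.09, neither past the threshold. Other falls, picked here after the values were seen, were those of CKAP4 (-1.61 in 11H1 and -1.72 in 14B5), TCP11L2 (-0.73 and -1.17) and TMEM263 (-1.17 and -0.53). Among the genes tested in this stretch of chromosome 12, none approached the fall of CRY1.

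**Figure D1:**
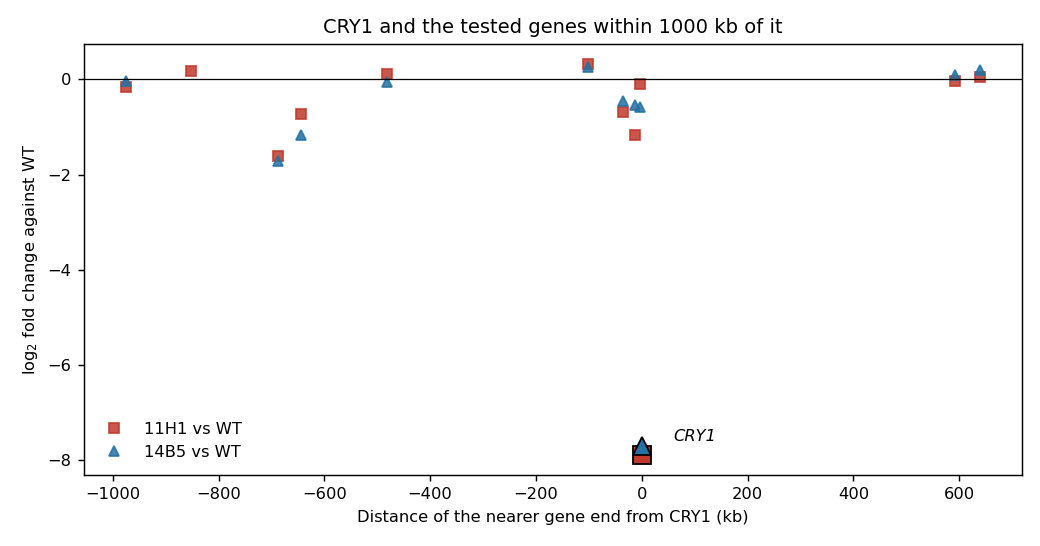
The log2 fold change against WT of CRY1 (outlined symbols) and of the tested genes within 1000000 bases, by the distance in kb of the nearer gene end from CRY1, negative towards lower coordinates; squares are 11H1 and triangles 14B5. CRY1 lies at -7.90 and -7.71, and every neighbour lies between -1.72 and 0.33.

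CRY2 (chr11:45847118-45883248, plus strand), the other cryptochrome repressor and the DYRK1A substrate of the loop, was at 32.3, 33.7 and 32.05 CPM in WT. The 11H1 libraries held 49.6, 52.9 and 47.5 CPM and those of 14B5 36.9, 36.1 and 37.1. No KO library overlapped the WT range, and the 11H1 libraries lay above those of 14B5. Against WT the log2 fold change was 0.62 in 11H1 (95% interval 0.50 to 0.74, edgeR adjusted p = 1.12e-06) and 0.15 in 14B5 (0.05 to 0.26, adjusted p = 0.0214). In KO versus WT it was 0.41 (0.10 to 0.71, adjusted p = 0.0447), with an exact permutation p of 0.0238 (2-sided) where 0.0119 is the smallest that 6 libraries against 3 can give. Both of the smaller calls were fragile. The KO call was lost without any of the 3 WT or the 3 11H1 libraries (adjusted p = 0.0650 to 0.140) and under limma-voom (0.0571), and the 14B5 call was lost without WT 1 (0.0678) or 14B5 3 (0.0550). The difference between the clones, given throughout as 11H1 minus 14B5 on the log2 scale, was 0.45 (0.34 to 0.56, adjusted p = 9.62e-06).

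Per kilobase of merged exons, CRY1 and CRY2 together came to 7.97, 8.33 and 8.19 CPM per kb in WT, of which CRY1 made up 34.7%, 34.8% and 36.9%. In 11H1 the sum was 8.02, 8.54 and 7.67 CPM per kb, within or just beyond the WT range, and in 14B5 it was 5.97, 5.83 and 6.004, below every WT library. In both clones the sum was almost wholly CRY2, with a CRY1 share of 0.0704% to 0.299%. The summed cryptochrome RNA of 11H1 thus overlapped that of WT while its make-up differed.

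**Figure D2:**
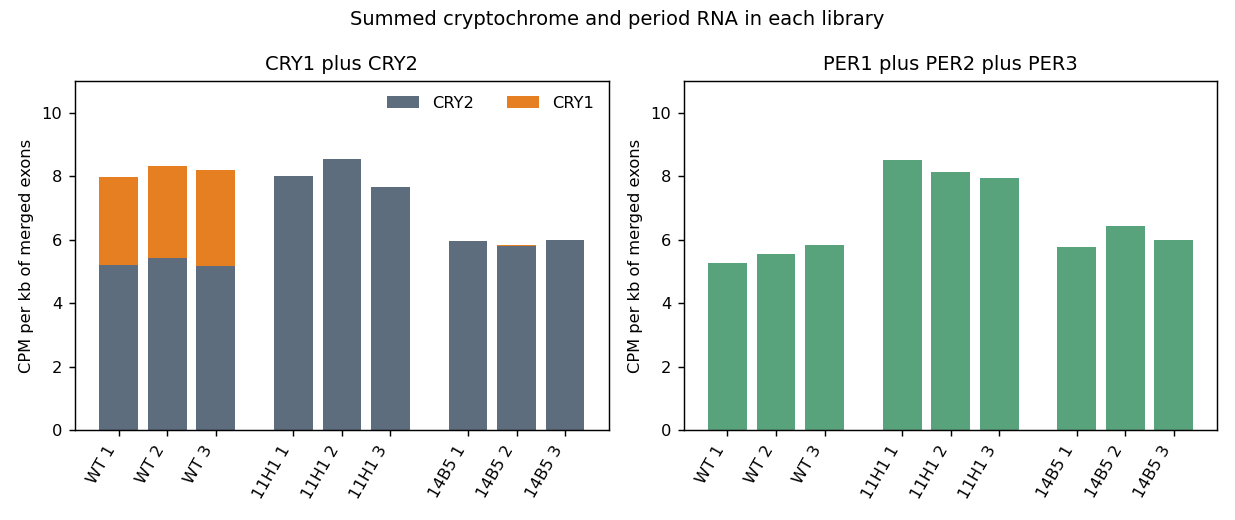
Summed RNA of CRY1 and CRY2 (left, stacked) and of PER1, PER2 and PER3 (right) in each library, in CPM per kb of merged exons; each bar is 1 library. The CRY1 part is visible in the 3 WT bars only, the 14B5 cryptochrome sums of 5.83 to 6.004 lie below the WT sums, and the 11H1 period sums of 7.96 to 8.51 lie above all others.

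PER2 (chr2:238244038-238290102, minus strand), a period protein that carries the cryptochromes into the nucleus, was at 17.1, 18.0 and 18.5 CPM in WT. The 11H1 libraries held 31.9, 32.03 and 32.02 CPM and those of 14B5 22.8, 25.6 and 23.6. The 3 groups were fully separated, in the order WT, 14B5, 11H1. On the log2 scale the change was 0.85 in 11H1 (0.73 to 0.97, edgeR adjusted p = 9.03e-08) and 0.41 in 14B5 (0.27 to 0.55, adjusted p = 3.26e-04). In KO versus WT it was 0.65 (0.35 to 0.94, adjusted p = 0.00439), and the exact permutation p of 0.0119 was the smallest possible. The clones differed by 0.42 (0.30 to 0.53, adjusted p = 3.07e-05). PER2 was the member called in all 3 comparisons against WT under each of the settings tried.

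PER1 (chr17:8140472-8156506, minus strand), the period gene known for rapid induction by signals, was at 16.2, 16.2 and 17.8 CPM in WT. The 11H1 libraries held 22.7, 20.6 and 19.4 CPM and those of 14B5 14.7, 16.9 and 15.6. The 11H1 libraries lay above all others, and those of 14B5 overlapped WT. The log2 fold change was 0.33 in 11H1 (0.17 to 0.49, edgeR adjusted p = 0.00199), -0.10 in 14B5 (-0.26 to 0.05, adjusted p = 0.240) and 0.42 between the clones (0.26 to 0.58, adjusted p = 3.35e-04).

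PER3 (chr1:7784320-7845177, plus strand), the period gene least needed for rhythm in mouse knockouts, was the lowest of the 3. It was at 3.76, 4.95 and 4.83 CPM in WT, 5.12, 4.45 and 4.29 in 11H1 and 2.73, 2.52 and 2.59 in 14B5. Here 14B5 stood apart below, and 11H1 overlapped WT. Its log2 fold change was -0.80 in 14B5 (-1.09 to -0.51, edgeR adjusted p = 4.95e-04), 0.05 in 11H1 (-0.23 to 0.33, adjusted p = 0.738) and 0.83 between the clones (0.57 to 1.09, adjusted p = 7.66e-05). The period genes therefore did not move as a unit: PER2 rose in both clones, PER1 rose in 11H1 and PER3 fell in 14B5. Summed over the 3 genes, period RNA was 5.26, 5.55 and 5.84 CPM per kb in WT, 8.51, 8.14 and 7.96 in 11H1 and 5.76, 6.44 and 5.98 in 14B5, where 14B5 overlapped WT.

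**Figure D3:**
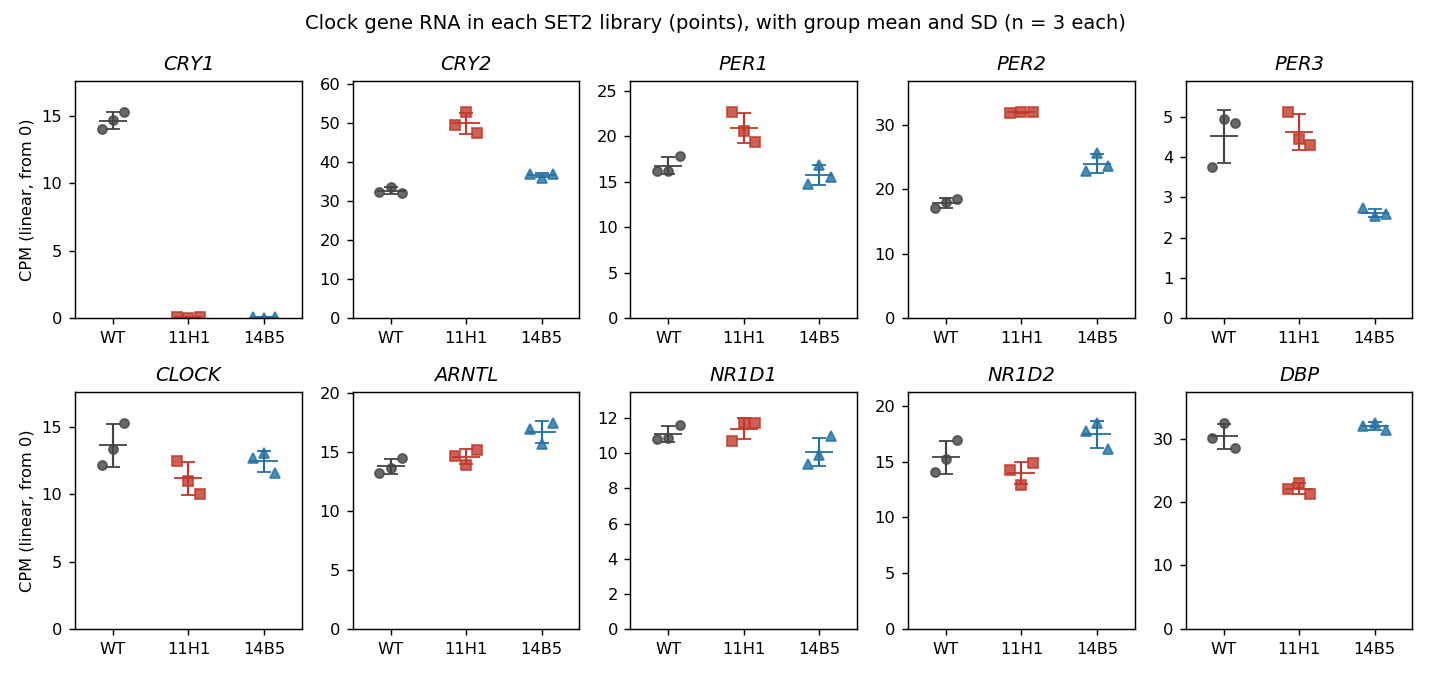
CPM of each clock gene in each of the 9 libraries (points), with the group mean and SD (n = 3), on linear axes from 0 that differ between genes; circles are WT, squares 11H1 and triangles 14B5. CRY1 is at most 0.0912 CPM in KO libraries, PER2 is separated in all 3 groups, and the 11H1 libraries of CRY2 and DBP and the 14B5 libraries of PER3 stand apart from the rest.

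Of the activators of the loop, CLOCK passed the threshold against WT in 11H1 only and ARNTL in 14B5 only. CLOCK (chr4:55427903-55547138, minus strand), a bHLH-PAS activator, was at 12.2, 13.4 and 15.3 CPM in WT, 12.5, 11.0 and 10.1 in 11H1 and 12.7, 13.1 and 11.6 in 14B5. All groups overlapped. In 11H1 the log2 fold change of -0.27 passed the threshold (-0.49 to -0.04, edgeR adjusted p = 0.0372), but the call was lost without WT 2, WT 3, 11H1 2 or 11H1 3 (adjusted p = 0.0545 to 0.150), with limma-voom (0.0505) and with the replicate number as a block (0.0698). In 14B5 it was -0.14 (-0.35 to 0.06, adjusted p = 0.210), and between the clones -0.14 (-0.33 to 0.05, adjusted p = 0.176).

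ARNTL (chr11:13276652-13387266, plus strand), which encodes BMAL1, was at 13.2, 13.6 and 14.5 CPM in WT, 14.7, 13.9 and 15.2 in 11H1 and 16.9, 15.7 and 17.5 in 14B5. The 14B5 libraries lay above both other groups, and 11H1 overlapped WT. On the log2 scale the change was 0.26 in 14B5 (0.11 to 0.41, edgeR adjusted p = 0.00913) and 0.09 in 11H1 (-0.06 to 0.24, adjusted p = 0.270). The difference between the clones, -0.19 (-0.33 to -0.05, adjusted p = 0.0245), was lost without 11H1 1, 11H1 2 or 14B5 3 (adjusted p = 0.0572 to 0.0856) and under the DESeq2 Wald test (0.0574).

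NR1D1 (chr17:40092787-40100725, minus strand), REV-ERB alpha, was at 10.8, 10.8 and 11.6 CPM in WT, 10.7, 11.7 and 11.7 in 11H1 and 9.41, 9.88 and 11.0 in 14B5. It passed the threshold in no comparison, with log2 fold changes of 0.04 (-0.12 to 0.20) in 11H1, -0.15 (-0.33 to 0.03) in 14B5 and 0.18 (0.01 to 0.34, edgeR adjusted p = 0.0615) between the clones. The last passed without 11H1 1 (adjusted p = 0.0481) or 14B5 3 (0.0231). NR1D2 (chr3:23945260-23980618, plus strand), REV-ERB beta, was at 14.1, 15.2 and 16.96 CPM in WT, 14.2, 12.9 and 14.8 in 11H1 and 17.7, 18.5 and 16.2 in 14B5. Each clone overlapped WT, on opposite sides, and the clones did not overlap each other. NR1D2 was -0.13 in 11H1 (-0.31 to 0.05, adjusted p = 0.196), 0.17 in 14B5 (-0.02 to 0.35, adjusted p = 0.114) and -0.31 between the clones (-0.47 to -0.15, adjusted p = 0.00253).

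DBP (chr19:48630030-48637438, minus strand), the PAR bZIP activator of D-box genes and a direct E-box target, was at 30.1, 32.4 and 28.5 CPM in WT. The 11H1 libraries held 22.1, 23.0 and 21.2 CPM and those of 14B5 32.03, 32.5 and 31.3. The 11H1 libraries lay below all others, and 14B5 overlapped WT. The log2 fold change was -0.45 in 11H1 (-0.59 to -0.31, edgeR adjusted p = 5.52e-05), 0.06 in 14B5 (-0.07 to 0.19, adjusted p = 0.433) and -0.53 between the clones (-0.63 to -0.42, adjusted p = 3.12e-06). In KO versus WT none of the 7 members other than CRY2 and PER2 passed, with log2 fold changes from -0.32 (PER3) to 0.18 (ARNTL).

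**Figure D4:**
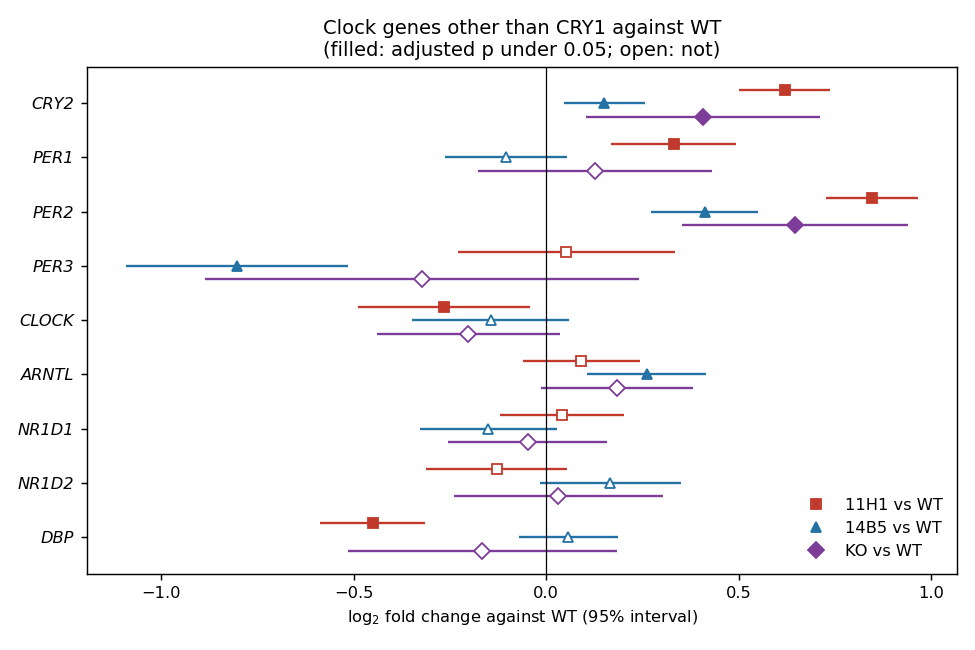
The log2 fold change against WT of the 9 clock genes other than CRY1, with 95% intervals, for 11H1 (squares), 14B5 (triangles) and both clones together (diamonds); filled symbols passed an adjusted p of 0.05. CRY2 and PER2 are filled and right of 0 in all 3. PER1, CLOCK and DBP are filled in 11H1 only, and PER3 and ARNTL in 14B5 only.

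Between the clones, the repressors CRY2, PER1, PER2 and PER3 were higher in 11H1, and ARNTL, NR1D2 and DBP were higher in 14B5. In an exact permutation test 3 libraries against 3 cannot go below 0.1, the value that each of these 7 members gave. Of all genes tested, 68.7% had no overlap between the libraries of the clones. Against WT the share without overlap was 68.7% in 11H1, 60.9% in 14B5 and 36.5% in KO.

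Per kilobase of merged exons, WT levels ran from CRY2 (5.27 ± 0.141 CPM per kb, SD, n = 3) and DBP (4.64 ± 0.300) through NR1D1 (4.001 ± 0.164), CRY1 (2.89 ± 0.128), NR1D2 (2.65 ± 0.252), PER2 (2.60 ± 0.106), PER1 (2.39 ± 0.134) and ARNTL (2.05 ± 0.0996) to CLOCK (1.16 ± 0.134) and PER3 (0.557 ± 0.0808). CRY1 and NR1D2, and NR1D2 and PER2, differed by no more than the SD of NR1D2. The order depends on the length used: per kilobase of the principal transcript, DBP led (13.6 CPM per kb), ahead of CRY2 (7.77) and ARNTL (4.97), and PER3 (0.728) remained lowest. In 11H1 PER2 ranked next to CRY2 by merged exons (4.65 ± 0.0101 CPM per kb), and in both clones CRY1 ranked last.

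Some members share exon sequence with a gene on the opposite strand, and the setting for strand in the counting is not stated in the sources used here. DBP shares 661 bases (10.1% of its exons) with SPHK2, which was at 28.0 CPM in WT, 40.3 in 11H1 and 31.1 in 14B5, and NR1D1 shares 263 bases (9.49%) with THRA, at 37.8, 42.9 and 59.8. PER3 shares 868 bases (10.7%) with UTS2, which stayed at or under 0.0439 CPM, and CLOCK shares 76 bases (0.646%) with TMEM165. SPHK2 was higher in 11H1, where DBP was lower, and the part of shared reads in these levels was not tested.

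A wider list of 44 genes around the loop was written by name from general knowledge, and 38 had enough counts to be tested in each comparison. In KO versus WT 11 were higher and 8 lower (19 of 38, beside 32.0% of all genes), with a median log2 fold change of 0.07. In 11H1 versus WT 16 were higher and 12 lower (73.7% beside 64.6%), in 14B5 versus WT 14 and 10 (63.2% beside 53.5%), and in 11H1 versus 14B5 10 were higher and 15 lower (65.8% beside 63.7%). NPAS2, the CLOCK paralog, had 0 counts in all 9 libraries. RORB, HLF, PRKAA2 and FBXL21 were among the genes too low to test. PRKAA2, a catalytic subunit of AMPK, had 9, 11 and 13 counts in WT and 0 in each KO library.

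On the transcription factor side, BHLHE40 (DEC1), an E-box repressor, fell in both clones. It was at 37.9, 40.1 and 50.01 CPM in WT, 10.1, 10.4 and 11.5 in 11H1 and 20, 24.5 and 19.4 in 14B5, with no overlap between any groups. Its log2 fold change was -1.99 in 11H1 (edgeR adjusted p = 1.20e-08), -1.01 in 14B5 (4.24e-05) and -1.41 in KO versus WT (0.00366). Its paralog BHLHE41 (DEC2) went the other way, 0.43 in 11H1 (adjusted p = 0.0148) and 1.2 in 14B5 (1.24e-05), and is named here after its values were seen. CIART, a repressor of CLOCK-BMAL1, was low at 0.752, 0.859 and 0.656 CPM in WT and 0.174 to 0.587 CPM in KO, and its KO versus WT fall of 1.12 on the log2 scale (adjusted p = 0.0479) was lost without any of the 3 WT libraries, 11H1 3 or any of the 3 14B5 libraries (adjusted p = 0.0638 to 0.163).

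ARNTL2, the BMAL1 paralog, fell in KO versus WT by 0.66 (edgeR adjusted p = 0.00437), RORA, the activator that binds ROR elements, by 0.52 (0.00465), and NFIL3, the repressor at D-boxes, by 0.46 (0.00401). Of the partners of the PER and CRY proteins 3 of 4 were higher and none lower (14.3% of all genes were higher), led by SFPQ at 0.32 (adjusted p = 0.0413) and TIMELESS at 0.31 (0.00157). The SFPQ call was lost without any of the WT or 11H1 libraries (adjusted p = 0.0656 to 0.130).

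Enzymes that mark or degrade the PER and CRY proteins went in both directions in KO versus WT, where 32.0% of all genes passed. Of 8 kinases tested 3 were higher and 1 lower, among them GSK3A at 0.24 (edgeR adjusted p = 0.00358) and CSNK1E, a casein kinase of the period proteins, at -0.29 (0.00785), a call lost without WT 2 (0.0501). Of 8 ubiquitin ligase subunits and deubiquitinases, SKP1 was lower (-0.42, adjusted p = 0.00274) and USP7 higher (0.25, 0.00475), and 6 did not pass.

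Among co-regulators, HDAC3, the deacetylase that works with REV-ERB, was at 74.8, 78.6 and 74.3 CPM in WT, 44.9, 43.7 and 39.9 in 11H1 and 43.9, 45.5 and 50.7 in 14B5. Both clones lay below WT, with a log2 fold change of -0.76 (edgeR adjusted p = 3.25e-05). SIRT1, a deacetylase that binds CLOCK-BMAL1, was higher by 0.55 (adjusted p = 0.00127). WEE1, a cell cycle kinase and E-box target, was at 87.6, 87.1 and 85.2 CPM in WT, 186, 184 and 182 in 11H1 and 138, 121 and 128 in 14B5. Its log2 fold change of 0.86 in KO versus WT (edgeR adjusted p = 0.00242) was the largest rise among the clock outputs listed.

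Several of these genes also separated the clones. KMT2A, a histone methyltransferase that binds CLOCK, was at 186, 206 and 229 CPM in WT, 395, 348 and 382 in 11H1 and 171, 193 and 189 in 14B5, a difference between the clones of 1.03 (edgeR adjusted p = 6.14e-08). CREBBP, an acetyltransferase used by CLOCK-BMAL1, differed by 0.77 (adjusted p = 1.84e-07), and the output gene KLF9 by -0.81 (9.56e-07). The deubiquitinase USP2 was at 0.824 CPM in 11H1 and 1.75 in 14B5 (group means), a difference of -1.08 (adjusted p = 7.69e-04).

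**Figure D5:**
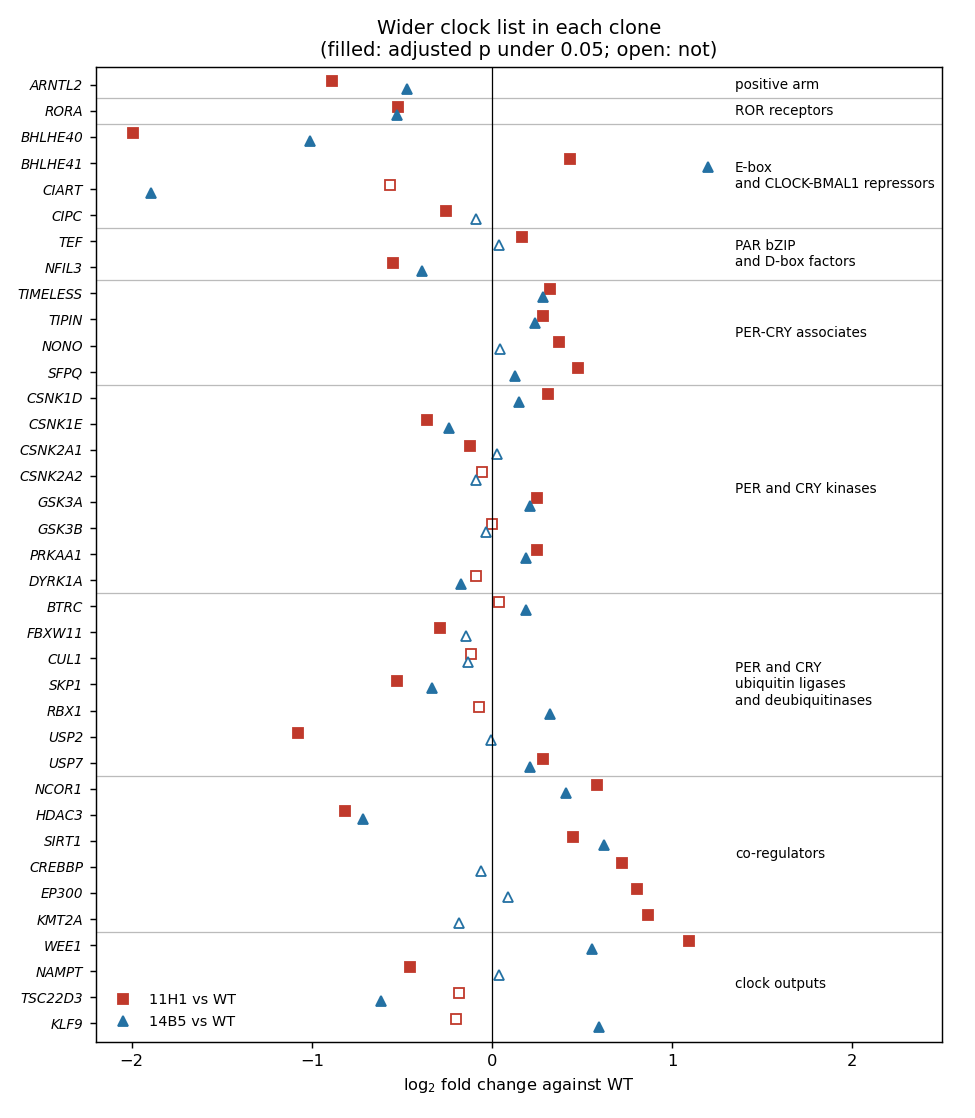
The log2 fold change against WT of 37 of the 38 tested genes of the wider clock list, by role, in 11H1 (squares) and 14B5 (triangles), with filled symbols past an adjusted p of 0.05. BHLHE40 lies furthest left in 11H1 at -1.99 and CIART in 14B5 at -1.89, BHLHE41 and WEE1 lie right of 0 in both clones, and CREBBP, EP300 and KMT2A are filled and right of 0 in 11H1 only.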

How the data were processed

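Bulk RNA-seq of 9 SET2 libraries was analysed from the RSEM expected counts per gene that the authors deposited, without scaling for depth or gene length. The submitters' processing notes name STAR 2.7.9a, Picard and RSEM with GRCh38. The labels and the paper's methods name different library kits, and the annotation release and strand setting are not given in the sources used here. The paper counts 5 KO libraries, but the table holds 6, and all of them were used.

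Spike-in rows (92, total 0) were left out and expected counts (5.73% to 6.64% not whole) were rounded. edgeR 4.0.16 in R 4.3.3 was run with TMM, filterByExpr and the quasi-likelihood F test over 17080 genes for KO against WT, 16675 for 11H1 against WT, 16537 for 14B5 against WT and 16352 for 11H1 against 14B5. Single members were also compared by a 2-sided exact permutation test on log2 CPM (prior count 0.5). The steps were tested on simulated counts. GENCODE v29 placed 58587 genes (96.6%) by identifier for coordinates and lengths. Same-numbered libraries did not deviate together (r = -0.135 to 0.059 in 9 pairs), and no pair of libraries agreed within sampling noise.

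The members and lists were chosen with earlier results of these data known. The naming rule covered all members, DYRK1A, up to 2 genes past the threshold with the largest changes per sublist, once for KO against WT and once for 11H1 against 14B5, and the 5 genes nearest to CRY1. A few listed genes and 1 marker list are not reported here. The fits were repeated with the Wald test and the size factors of DESeq2 1.42.0, limma-voom (limma 3.58.1), no filter, at least 10 counts in every library, 3 groups fitted together, a replicate block and each library left out. glmTreat beyond a log2 fold change of 0.2 and principal transcript lengths were added after seeing the data.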

Additional observations from a re-analysis of the deposited data

Results flagged for a closer look

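The effect against WT differed between the clones, in the direct test of 11H1 against 14B5 (edgeR, adjusted p under 0.05), for 7 clock members. The log2 difference (11H1 minus 14B5) was 0.45 for CRY2, 0.42 for PER1, 0.42 for PER2, 0.83 for PER3, -0.19 for ARNTL, -0.31 for NR1D2 and -0.53 for DBP, where 63.7% of all genes tested passed. Among named genes of the wider list it was -0.43 for ARNTL2, -1.0 for BHLHE40, 1.31 for CIART, 0.32 for NONO, 0.33 for SFPQ, 0.14 for CSNK1D, -0.17 for CSNK2A1, -0.41 for RBX1, -1.08 for USP2, 0.77 for CREBBP, 1.03 for KMT2A, 0.52 for WEE1 and -0.81 for KLF9. The CSNK1D call was lost without 11H1 2 (edgeR adjusted p = 0.0600), and the ARNTL call was fragile as given above. The share of mitochondrial counts also differed between the clones (7.23% to 7.39% in 11H1, 3.30% to 3.92% in 14B5), and its part in these differences was not tested. A rule on the gap to the next library over the range of the 6 pooled KO libraries flagged no library for any of the 10 members. Where the clones differ, that difference widens the range, so the rule is weak for a stray library within 1 clone. WT libraries were not checked by it.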

How the results depend on the processing

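In KO versus WT the count of called members (2) was 1 under limma-voom, with at least 10 counts in every library, with the replicate number as a block and under glmTreat, since CRY2 lost its call, and it ranged from 1 to 2 with each library left out. With 3 groups fitted together it was 5, PER3 (-0.37), ARNTL (0.18) and DBP (-0.19) being added, while the wider list rose from 19 to 31 and all genes from 5471 to 10245. glmTreat gave 11 of the wider list and 3449 of all genes. In 14B5 versus WT glmTreat gave 2 members (4), 14 of the wider list (24) and 5565 of all genes (8853), and in 11H1 versus 14B5 16 of the wider list (25) and 6828 of all genes (10419), with the values without it in parentheses; it asks for a change beyond 0.2, so fewer calls follow from its construction. The fit of 3 groups gives each clone its own mean, so the difference between the clones is not in its residual spread. Its KO value is the average of the clones. For the members it added, PER3 was 0.05 in 11H1 versus WT and -0.80 in 14B5 versus WT, ARNTL 0.09 and 0.26, and DBP -0.45 and 0.06. The cause of the changes under settings other than glmTreat was not tested. The replicate block, where the numbers were not found to pair the libraries, also ended the calls of CLOCK in 11H1 (adjusted p = 0.0698), of CRY2 (0.0871) and DYRK1A (0.0825) in 14B5, of SFPQ in 14B5 (0.118) and of CIART (0.0935) and SFPQ (0.0984) in KO versus WT. Values past no threshold changed sign only with a library left out: NR1D2 in KO versus WT, -0.037 without WT 1, -0.005 without 14B5 1 and -0.020 without 14B5 2 (highest 0.106, without WT 3), and PER3 in 11H1 versus WT, -0.072 without WT 1 and -0.044 without 11H1 1 (highest 0.116, without WT 2). Under no filter on low counts NR1D2 in 14B5 versus WT passed (0.20, adjusted p = 0.0471), as it did without WT 3 (0.25, 0.0234), and CLOCK passed between the clones without 11H1 1 (-0.24, 0.0373). Residual CRY1 rested on 1 to 5 counts a library, so depth limits any comparison of its level between the clones, and 3 libraries of 1 clone cannot stand for other DYRK1A knockouts.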
